A study of Mus musculus with 72 samples.

Results

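The comparison described here is that of fed knockouts of element E3 with fed wild types, in RNA from adult mouse hypothalamus. Its members are the 6 libraries that the labels place in those groups, 3 knockouts and 3 wild types, out of 72 in the series. The series knocks out 5 conserved noncoding elements, E1 to E5, each compared with its own wild types, to find out whether conserved elements linked to hibernation affect gene expression, in B6 mice that were fed or had been kept for 72 h without food but with water. Both groups used here were fed, carried no other allele that the labels name, and had batch labels that open with the same number as each other and as those of the 6 fasted E3 libraries. The position of E3 in the genome, the way it was removed and the number of founders of the line are not given in the sources used here; the deposited tables carry the name of Fto. The labels number the libraries of a group but do not say that each came from its own mouse, so the p-values measure the spread between libraries.

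The 6 libraries held 15474269 to 21563021 counts, and the 10 most abundant genes took 2.9% to 3.58% of them. Levels are given as scaled CPM, in which each library's CPM was divided by its TMM factor from the 6 libraries, and knockout 1, 2 and 3 are listed before wild type 1, 2 and 3. Markers of hypothalamus were present in all 6 libraries: vasopressin (Avp) was at 29.0, 45.2 and 32.3 in knockouts and 40.0, 30.0 and 35.7 in wild types, and Pomc, the precursor of melanocortins, at 3.36, 5.10 and 2.94 against 4.99, 6.47 and 6.07. The libraries also held transcripts of neighbouring regions, in unequal amounts. Drd1, the dopamine receptor of striatal projection neurons, was at 36.9 and 55.3 in knockouts 1 and 2, at 12.2 in knockout 3, and at 12.1, 4.81 and 14.3 in wild types. Ttr, the defining transcript of choroid plexus, was at 504.2 in knockout 3 and at 1.05 to 7.95 in the other 5 libraries, and Neurod6, a gene of cortical and hippocampal pyramidal neurons, at 26.6 in knockout 3 and 0.387 to 2.95 in the others. Prkcd, abundant in thalamus, was lowest in knockouts 1 and 2 (85.9 and 24.7), against 187.9 in knockout 3 and 129, 133 and 143 in wild types. Values from knockout 3 alone against the wild types are given beside the lists and genes of forebrain regions.

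**Figure D1:**
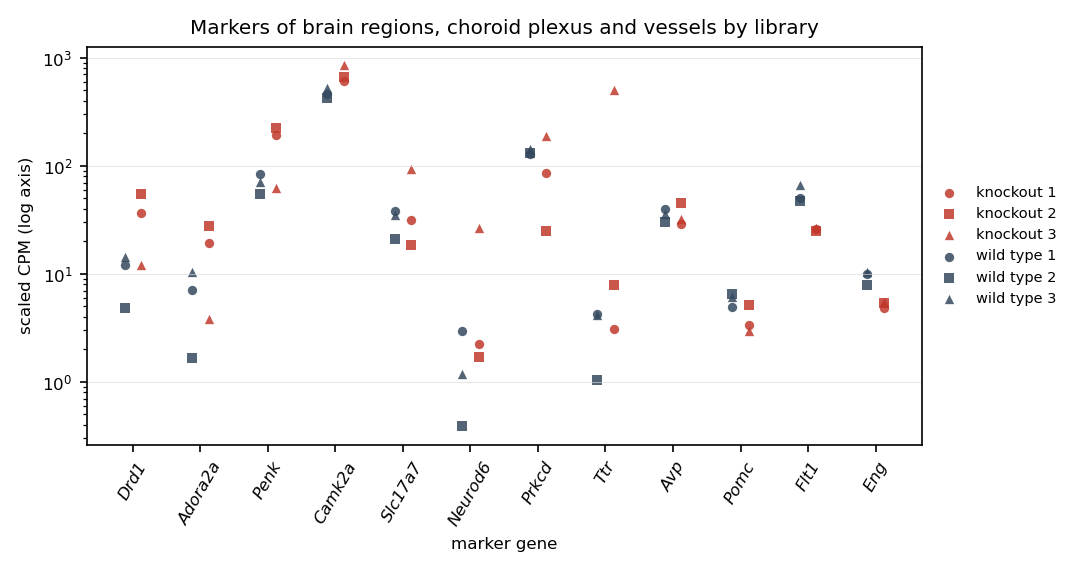
Scaled CPM (log axis) of 12 marker genes in each of the 6 fed E3 libraries; red symbols are knockouts, dark symbols wild types, and the symbol shape gives the replicate number. Drd1, Adora2a and Penk are high in knockouts 1 and 2, Ttr and Neurod6 in knockout 3 (504.2 and 26.6), while Flt1 and Eng are lower in each knockout than in each wild type.

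Blood vessels of the brain are lined by endothelial cells, which form the barrier between blood and tissue. Vascular endothelial growth factor (VEGF) acts on them through the receptors Flt1, Kdr and Flt4, and angiopoietins through Tek and Tie1, while transcription factors of the ETS family such as Erg maintain endothelial gene expression. Because the vessels run through the whole hypothalamus, their transcripts make up a small share of bulk RNA; in such samples fewer cells of a type and less RNA per cell cannot be told apart.

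The 12 genes of smallest p that were lower in knockouts included the endothelial genes Flt1, Adgrl4 and Ptprb. The promoters of Flt1, Adgrl4 and Eng, an endothelial gene outside the 12, are printed because ETS proteins bind a GGAA core. Their log2 fold changes were -1.08, -1.13 and -0.85. These 3 were picked from the genes with an entry after their values were seen. The stretches run from 250 bases before to 50 bases after the annotated start (RefSeq, GRCm38.p6), in the direction of the gene, and capitals mark AGGAAG or its reverse complement CTTCCT. They are Flt1 at chr5:147725962-147726261 (minus strand), Adgrl4 at chr3:151437632-151437931 (plus strand) and Eng at chr2:32646345-32646644 (plus strand).
Flt1: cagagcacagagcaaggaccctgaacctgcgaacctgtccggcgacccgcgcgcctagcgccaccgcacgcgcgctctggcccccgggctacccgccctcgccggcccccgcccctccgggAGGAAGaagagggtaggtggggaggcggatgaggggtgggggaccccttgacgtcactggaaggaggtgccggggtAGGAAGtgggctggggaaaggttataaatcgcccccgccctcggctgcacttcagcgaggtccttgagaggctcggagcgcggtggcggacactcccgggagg
Adgrl4: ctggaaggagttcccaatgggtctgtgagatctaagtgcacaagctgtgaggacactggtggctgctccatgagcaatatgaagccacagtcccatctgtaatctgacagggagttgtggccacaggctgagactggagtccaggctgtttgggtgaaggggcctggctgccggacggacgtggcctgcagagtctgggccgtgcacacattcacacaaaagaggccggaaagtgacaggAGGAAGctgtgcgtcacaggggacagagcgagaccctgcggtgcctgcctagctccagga
Eng: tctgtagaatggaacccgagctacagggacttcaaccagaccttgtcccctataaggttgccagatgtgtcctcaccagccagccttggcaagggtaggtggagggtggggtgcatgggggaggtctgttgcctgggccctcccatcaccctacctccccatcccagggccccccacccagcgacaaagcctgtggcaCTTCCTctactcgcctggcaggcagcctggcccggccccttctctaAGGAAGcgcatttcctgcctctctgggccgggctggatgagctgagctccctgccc
The Flt1 stretch held 2 matches, beginning 129 and 53 bases before the start, Adgrl4 held 1 at 10 bases and Eng 2 at 52 and 6 bases. Of 30 genes on a list of endothelial genes, 21 had a promoter in the table and 12 of those held the 6 letters on either strand (57.1%), against 9498 of 27025 promoters (35.1%). Among the 12 genes of smallest p that were lower in knockouts, 2 of 8 with an entry held it. A match describes letters and is no sign of a bound factor. The promoter of Ptprb was among those with no entry.

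No gene passed the main test, edgeR's quasi-likelihood test with Benjamini-Hochberg adjustment, in the fed E3 comparison: 0 of 14602 genes tested were called (0.0%), the smallest adjusted p was 0.158, and 1422 genes had an unadjusted p under 0.05 (9.74%), 641 higher (4.39%) and 781 lower (5.35%) in knockouts. DESeq2 called 107 (0.733%), 56 higher and 51 lower, and edgeR's likelihood ratio test 131 (0.897%). Estimates were below 0 for 49.5% of genes and above 0 for 50.5%, with a median of 0.00 on the log2 scale. In 7.78% of genes each knockout lay below each wild type, and in 7.6% each lay above. The 12 genes of smallest p in each direction, predicted models aside, had adjusted p-values of 0.158 to 0.191 in the main test. All 24 had groups that did not overlap and were called by DESeq2, which over all genes called 0.384% as higher and 0.349% as lower. Small p in the same 6 libraries chose them, so these counts describe the 24 and test nothing. With knockouts 1 and 2 left out, all 24 estimates kept their sign. Where groups do not overlap, the remaining knockout lies beyond every wild type, so the sign was fixed beforehand and tests nothing.

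Flt1 (ENSMUSG00000029648, mm10 chromosome 5, 147561604 to 147726011, minus strand), which binds VEGF and limits its supply to Kdr, was at 25.9, 25.03 and 26.5 scaled CPM in knockouts and 50.5, 47.3 and 66.3 in wild types. The knockouts lay close together and below every wild type, and the estimate was -1.08 on the log2 scale (SE 0.13, 95% interval -1.37 to -0.80, edgeR adjusted p 0.158, DESeq2 adjusted p 3.15e-09). Adgrl4 (ENSMUSG00000039167, mm10 chromosome 3, 151437887 to 151545086, plus strand), an adhesion receptor of endothelial cells, was at 10.9, 11.4 and 10.9 against 20.9, 21.5 and 30.3 (-1.13, SE 0.15, edgeR adjusted p 0.158). Wild type 3 held the highest value of both genes, and without it the estimates were -0.92 and -0.93. Ptprb, a phosphatase that restrains Tek signalling, was at 23.1, 22.7 and 23.0 against 34.6, 32.6 and 41.1 (-0.65, SE 0.10, edgeR adjusted p 0.191).

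The receptor and transcription factor genes of the endothelium showed the same direction. Eng, a co-receptor for TGF-beta ligands, was at 4.78, 5.37 and 5.51 scaled CPM in knockouts and 9.93, 7.90 and 10.4 in wild types (log2 -0.85, SE 0.16). Erg was at 3.62, 4.46 and 3.58 against 7.65, 6.47 and 8.87 (-0.97, SE 0.19). Gata2, a transcription factor of endothelial and blood lineages that some neurons also use, was at 1.16, 0.965 and 1.18 against 4.70, 2.87 and 2.74 (-1.65, SE 0.31). Klf4, which responds to blood flow, was at 1.49, 1.52 and 1.497 against 3.49, 4.70 and 3.12 (-1.32, SE 0.25). In each of these 4 genes the groups did not overlap (background 7.78%), DESeq2 called the difference (background 0.349%) and the edgeR adjusted p was 0.191. They were named with their values in the same 6 libraries known, so these counts describe the 4 and test nothing.

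Junction and barrier genes ranged from differences near those of Eng to none. Esam, an adhesion molecule of endothelial junctions, had an estimate of -0.84 (SE 0.21) with groups apart, and the transporters Abcb1a, Slco1a4 and Abcg2 had -0.52, -0.54 and -0.46, also with groups apart. Pecam1, another adhesion molecule, was at 7.50, 6.02 and 5.61 scaled CPM in knockouts and 8.86, 8.57 and 10.3 in wild types (log2 -0.54, SE 0.16, edgeR adjusted p 0.383). Cdh5, the cadherin of the same junctions, was at 3.75, 4.46 and 7.27 against 8.67, 8.29 and 10.05 (-0.80, SE 0.24); knockout 3 was close to the wild types, and with that knockout alone the estimate was -0.31. Cldn5, the claudin of the blood-brain barrier, overlapped between groups, at 2.84, 4.96 and 4.12 against 6.34, 4.26 and 5.54 (-0.43, SE 0.25). Mfsd2a, a lipid transporter of the barrier, was the 1 gene of the endothelial list with an estimate above 0 (0.11, SE 0.15).

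Over the whole list, 30 of 30 endothelial genes were tested and 0 were called by edgeR; 17 had an unadjusted p under 0.05, all lower (background 5.35%), and DESeq2 called 5, all lower (background 0.349%). Estimates were below 0 for 29 of 30 and the median was -0.51, against 0.00 over all genes. In 19 of 30 each knockout was below each wild type (background 7.78%). Their summed level was 262, 265 and 280 scaled CPM in knockouts and 384, 361 and 447 in wild types, so that the groups did not overlap. With knockout 3 alone against the wild types 26 of 30 estimates were below 0 (median -0.43), and with single libraries left out 26 to 29 (median -0.58 to -0.41). For the 19 genes with groups apart the sign was fixed beforehand in these fits, so the counts test little.

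**Figure D2:**
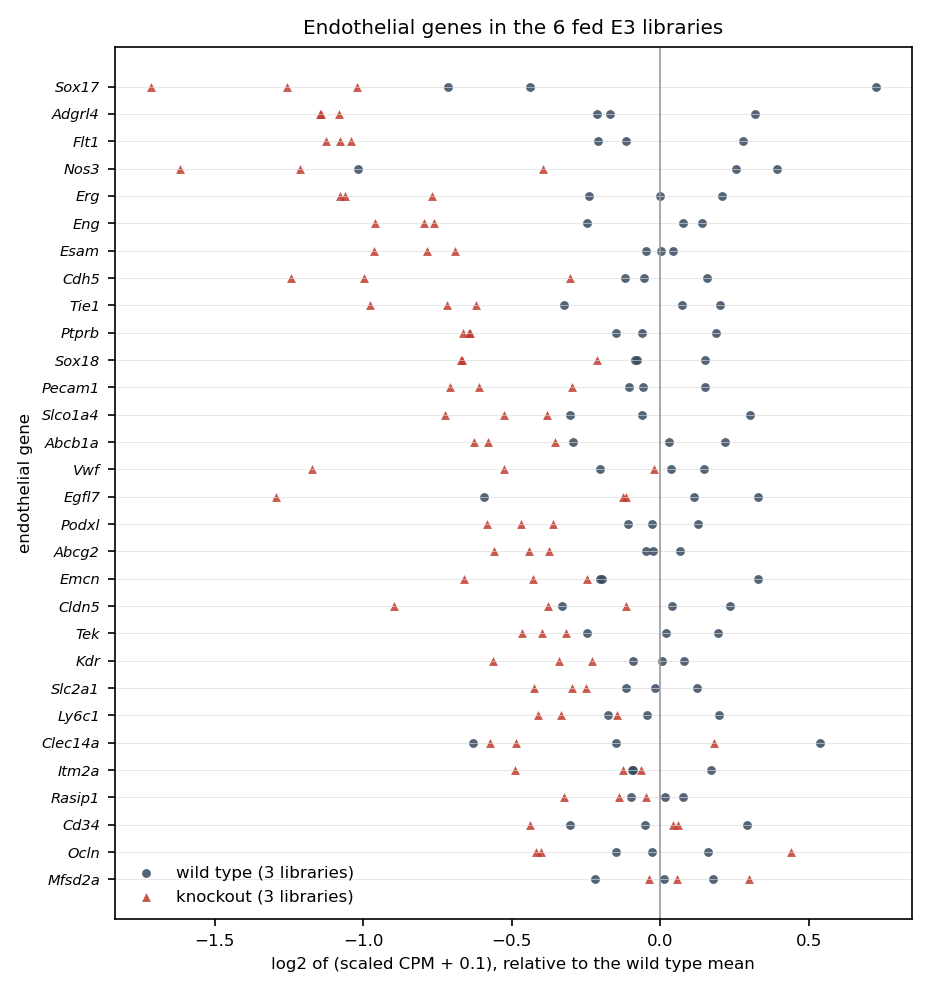
Each row is 1 of 30 endothelial genes; the horizontal axis is log2 of scaled CPM plus a pseudocount of 0.1, relative to the mean of the 3 wild types. Red triangles are knockouts and dark circles wild types; in 19 genes all triangles lie left of all circles, and Mfsd2a, at the bottom, does not follow.

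Among signals that act on vessels, the receptors of VEGF and of angiopoietins were lower in each knockout than in each wild type, while the main ligand and the co-receptors of VEGF were not. Tek was at 18.4, 17.5 and 19.5 scaled CPM in knockouts and 20.4, 24.5 and 27.7 in wild types (log2 -0.39, SE 0.12), Tie1 at 1.87, 1.75 and 1.44 against 2.32, 3.10 and 3.39 (-0.80, SE 0.26). Kdr, the main signalling receptor for VEGF, was at 6.08, 5.19 and 6.57 against 7.75, 7.24 and 8.17 (-0.38, SE 0.16), and Flt4 at 2.84, 1.75 and 2.35 against 4.02, 3.10 and 4.19 (-0.72, SE 0.26). Dll4, a Notch ligand of sprouting vessels, was low in all libraries, at 0.259, 0.413 and 0.267 against 1.11, 1.05 and 1.13 (-1.76, SE 0.38). The groups did not overlap in any of these 5 genes, and their edgeR adjusted p-values lay between 0.269 and 0.496. Vegfa itself was at 49.2, 45.7 and 44.4 against 49.0, 48.7 and 44.1 (-0.03, SE 0.08, 95% interval -0.21 to 0.15). Of 25 genes on the list of VEGF, angiopoietin and Notch signals 23 were tested, 15 had estimates below 0, and the median was -0.14; 4 of them also stand on the endothelial list. The co-receptors Nrp1 (0.02, SE 0.11) and Nrp2 (0.15, SE 0.15), the receptor Notch1 (0.00, SE 0.09) and S1pr1, a receptor for sphingosine 1-phosphate (0.15, SE 0.09), overlapped between groups. Notch4 (-0.32, SE 0.24) and Robo4 (-0.81, SE 0.36), receptors of endothelial cells, overlapped too. Plxnd1, a semaphorin receptor, was the 1 gene of the list higher at an unadjusted p under 0.05 (0.44, SE 0.19, background 4.39%), and its groups overlapped. At that level 8 of 23 were lower (background 5.35%), and in 7 of 23 each knockout was below each wild type (background 7.78%).

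Genes of the cells that wrap the vessels differed in part. Rgs5, abundant in pericytes, was at 37.6, 38.2 and 36.9 scaled CPM in knockouts and 53.4, 47.1 and 51.4 in wild types (log2 -0.43, SE 0.08, edgeR adjusted p 0.191), and Abcc9, a potassium channel subunit of pericytes, at 7.63, 7.07 and 6.52 against 9.78, 7.79 and 10.4 (-0.40, SE 0.16). Cspg4, shared by pericytes and oligodendrocyte precursors, overlapped (-0.12, SE 0.10). Of 14 tested genes of pericytes and smooth muscle 8 had estimates below 0 (median -0.08) and 4 had knockouts below every wild type (background 7.78%). Of 12 basement membrane genes 10 were below 0 (median -0.14), none of them with groups apart. Lamb1, a laminin chain, was the 1 member of the 12 with groups apart. It was higher (background 7.6%), at 28.0, 27.3 and 35.2 against 22.8, 21.2 and 24.7 (0.40, SE 0.12). Fibroblast genes were split, 7 below 0 and 6 above among 13 tested.

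Genes of red blood cells were at very low levels and lower still in knockouts. Hbb-bs, a beta globin, was at 0.776, 0.413 and 2.51 scaled CPM in knockouts and 6.34, 2.98 and 16.4 in wild types (log2 -2.80, SE 0.72, edgeR adjusted p 0.341). Slc4a1, the anion exchanger of the red cell membrane, was at 0.323, 0.367 and 0.802 against 1.40, 2.21 and 2.90 (-2.10, SE 0.44). The alpha globin genes Hba-a1 (-3.15, SE 0.83) and Hba-a2 (-3.22, SE 0.83) are near-identical copies, so the split of reads between them is uncertain; wild type 3 was highest in both, and without it the estimates were -1.99 and -2.15. Of 7 red cell genes tested all had estimates below 0 (median -2.80), and 5 had knockouts below every wild type (background 7.78%). Bpgm, which other cells also express, overlapped between groups (-0.15, SE 0.14). The summed level of the list overlapped too, at 54.3, 44.5 and 65.3 scaled CPM in knockouts and 72.6, 56.7 and 104 in wild types. In knockouts Hbb-bs and Slc4a1 made up a small part of that sum, so its overlap says little of them. Alas2, the defining enzyme of haem synthesis in red cells, was at 0 in all 6 libraries, as it was in the other fed libraries. The part of blood left in the vessels in the endothelial difference was not tested. The fed libraries of the other lines held more globin: Hbb-bs ran from 7.46 to 285 scaled CPM in their 32 libraries and from 0.44 to 17.1 in E3 with the scaling of all 38.

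The other genes among the 12 of smallest p on the lower side had no single role. Col26a1, a collagen, was at 16.4, 14.9 and 16.03 scaled CPM in knockouts and 24.5, 22.3 and 25.4 in wild types (log2 -0.61, SE 0.10). Hmcn1, an extracellular matrix protein, was at 7.63, 9.37 and 8.50 against 15.1, 13.4 and 17.3 (-0.84, SE 0.14). Wwox, an oxidoreductase with WW domains, was at 210, 193 and 193 against 262, 291 and 342 (-0.59, SE 0.11), and Glra1, the alpha subunit of the glycine receptor, at 23.9, 19.1 and 19.9 against 32.8, 31.6 and 29.3 (-0.58, SE 0.11). Plpp4, a lipid phosphatase (-0.50, SE 0.09), and Galnt14, which starts O-linked glycosylation (-0.49, SE 0.09), completed the 12 with Hspa1b.

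Hspa1b, the inducible heat shock protein Hsp70, was at 9.57, 5.603 and 9.35 scaled CPM in knockouts and 18.3, 16.7 and 16.3 in wild types (log2 -1.07, SE 0.19, edgeR adjusted p 0.191); reads of its near-identical copy Hspa1a may be shared with it. Its co-chaperone Dnajb1 was at 28.3, 29.3 and 31.3 against 40.8, 42.7 and 37.2 (-0.44, SE 0.09). In 7 of 16 heat shock genes each knockout was below each wild type (background 7.78%), 7 had an unadjusted p under 0.05, all lower (background 5.35%), and DESeq2 called 2 (background 0.349%). The median of the list was -0.03, and 7 of the 16 estimates were above 0. Of 18 interferon response genes 17 had estimates below 0 (median -0.22), with groups apart in 5 (background 7.78%) and an unadjusted p under 0.05 in 1. Rsad2, an antiviral enzyme, was at 0.840, 1.42 and 1.82 against 3.34, 3.32 and 7.42 (-1.76, SE 0.41), and Ube2l6, the conjugating enzyme for the interferon-induced modifier Isg15, which was singled out after its values were seen, at 2.52, 2.53 and 3.42 against 7.70, 5.25 and 18.3 (-1.88, SE 0.43). With knockout 3 alone 8 of 20 interferon genes were below 0 and the list median was 0.03, so its direction rests on knockouts 1 and 2.

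The 12 genes of smallest p that were higher in knockouts included genes of neurons and others of wider expression. Slc8a2 (ENSMUSG00000030376, mm10 chromosome 7, 16129826 to 16161063, plus strand), a sodium-calcium exchanger of neurons, was at 101, 108 and 105 scaled CPM in knockouts and 67.4, 64.7 and 74.1 in wild types (log2 0.61, SE 0.08, 95% interval 0.43 to 0.79, edgeR adjusted p 0.158, DESeq2 adjusted p 6.06e-06). Myo5b, a myosin that carries recycling endosomes, was at 42.6, 43.0 and 52.3 against 23.9, 23.0 and 28.7 (0.87, SE 0.12). Both genes were as far apart with knockout 3 alone (0.61 and 1.05). Mast3, a kinase of neurons, was at 113, 122 and 118 against 90.5, 82.8 and 86.7 (0.44, SE 0.07), and Agap2, a regulator of Arf GTPases, at 340, 390 and 318 against 236, 214 and 245 (0.59, SE 0.10); from knockout 3 alone they were at 0.44 and 0.45.

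Several of these genes are most abundant in cortex, hippocampus or striatum. Ddn, a protein of forebrain dendrites, was at 105, 140 and 158 scaled CPM in knockouts and 46.4, 24.6 and 57.0 in wild types (log2 1.65, SE 0.27). Chrm1, a muscarinic receptor, was at 33.4, 48.3 and 38.3 against 18.8, 10.7 and 19.2 (1.30, SE 0.22). Kcnv1, a modifier subunit of potassium channels, was at 15.8, 15.9 and 12.1 against 7.02, 4.37 and 7.04 (1.25, SE 0.20). From knockout 3 alone these 3 genes were at 1.88, 1.23 and 0.97. Cnksr2, a synaptic scaffold (0.65, SE 0.11), Hpcal4, a calcium sensor (0.62, SE 0.10), and Plppr4, a protein of excitatory synapses (0.53, SE 0.09), were also among the 12, at 0.54, 0.40 and 0.54 from knockout 3 alone. Ezr, which ties membranes to actin (0.65, SE 0.11), and Dgat2, an enzyme of triglyceride synthesis (0.68, SE 0.11), completed them, at 0.83 and 0.81 from knockout 3 alone.

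The lists of forebrain regions were higher in knockouts as well. Of 19 genes of cortex and hippocampus 16 had estimates above 0 (median 0.68), 7 had groups that did not overlap (background 7.6%) and DESeq2 called 4 (background 0.384%). Their summed level was 1555, 1639 and 2141 scaled CPM in knockouts and 1347, 1301 and 1487 in wild types. Camk2a, the kinase of excitatory synapses, was at 607, 668 and 856 against 458, 425 and 529 (0.60, SE 0.14). Itpka, a kinase of dendritic spines, was at 11.4, 15.7 and 13.8 against 5.62, 2.43 and 5.91 (1.55, SE 0.29), and Tbr1, a transcription factor of cortical projection neurons, at 10.1, 13.4 and 11.9 against 6.68, 7.08 and 7.201 (0.76, SE 0.15). All 3 were called by DESeq2, and their edgeR adjusted p-values were 0.313, 0.191 and 0.191. With knockout 3 alone 17 of 19 estimates were above 0 (median 0.77), and without knockout 3 the median was 0.37 and 11 were above 0. For the 7 genes with groups apart the sign was fixed beforehand in these fits.

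The striatal list depended on which knockouts were used. Of 20 genes 19 had estimates above 0 (median 0.70), but in none were the groups apart, and the summed level was 2713 and 3061 scaled CPM in knockouts 1 and 2, 1426 in knockout 3, and 1579, 1407 and 2428 in wild types. With knockout 3 alone 7 of 20 were above 0 and the median was -0.18. Penk, the enkephalin precursor, showed this at 194.5, 225 and 62.9 against 83.7, 55.2 and 70.3 (log2 1.21, SE 0.39, and -0.15 with knockout 3 alone). Thalamic genes ran the other way, 12 of 15 below 0 (median -0.39), at summed levels of 2754, 1880 and 4081 against 3346, 4069 and 4375; with knockout 3 alone 2 of 15 were below 0 and the median was 0.18. Knockout 3 had a striatal level within that of wild types and the highest level of cortical and hippocampal genes of the 6 libraries. The part of unequal forebrain tissue in the neuronal differences was not tested.

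**Figure D3:**
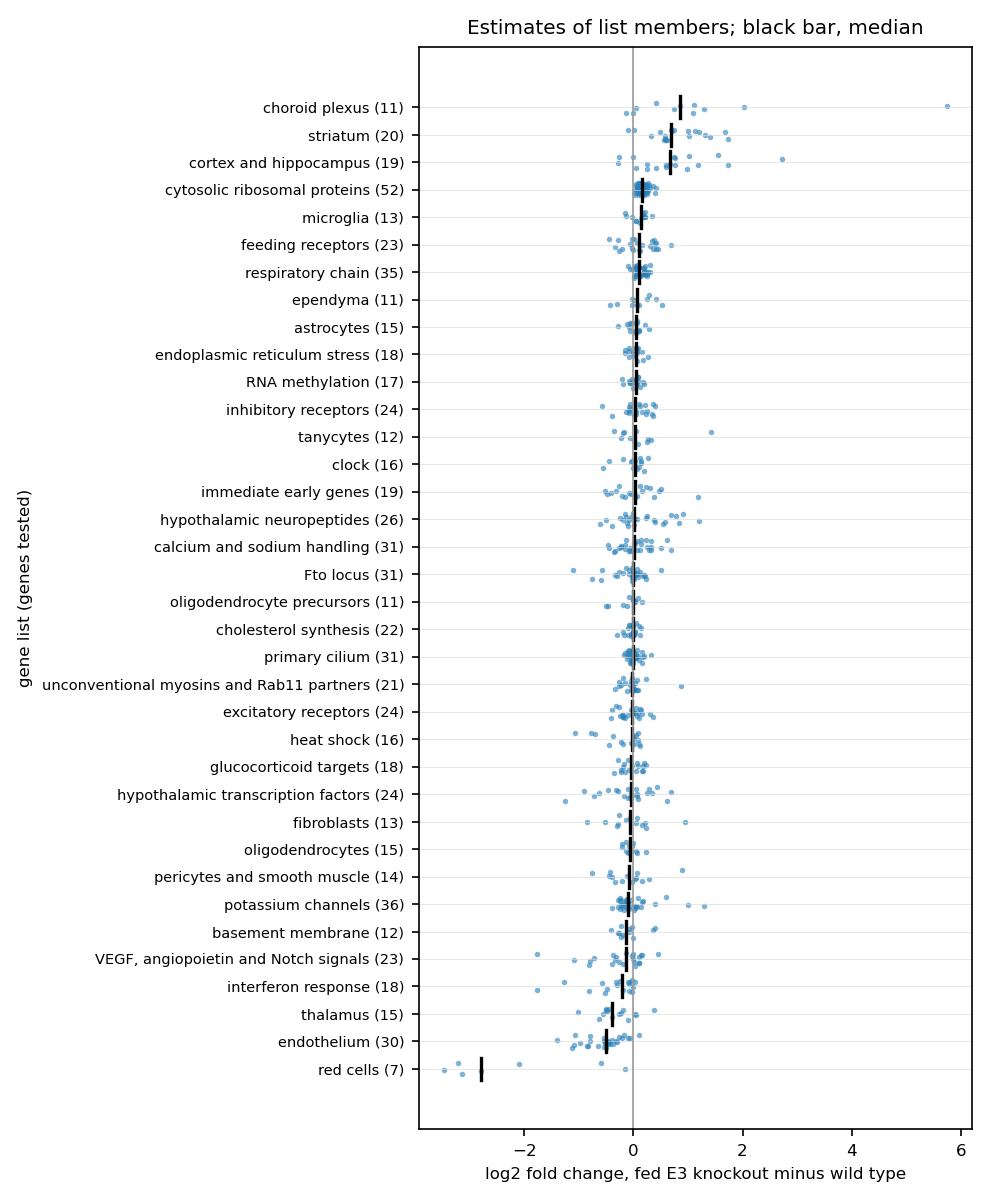
Each point is the log2 fold change, fed E3 knockout minus wild type, of 1 tested gene, in rows by gene list with at least 5 tested genes (number in brackets) sorted by their median (black bar). Red cell and endothelial genes lie lowest (medians -2.80 and -0.51), choroid plexus, striatal and cortical genes highest; the highest point, at 5.74, is Ttr.

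Choroid plexus genes had a median of 0.86, with 9 of 11 above 0, and knockout 3 supplied most of it: summed levels were 85.8, 114 and 654 scaled CPM in knockouts and 72.7, 99.4 and 90.5 in wild types. Without knockout 3 the median was 0.19. The estimate for Ttr was 5.74 (SE 1.75) with that library and 0.82 without it. Lists of pituitary, fat and liver had 0 genes tested, and their summed levels were at 2.03 scaled CPM or below in every library.

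Peptides of hypothalamic neurons differed in both directions. Of 26 tested 14 had estimates above 0 (median 0.02), 5 were higher at an unadjusted p under 0.05 (background 4.39%) and 1 was lower (background 5.35%), and DESeq2 called Npy. Their summed level was 545, 675 and 418 scaled CPM in knockouts and 430, 404 and 387 in wild types. Penk, Pdyn (0.84, SE 0.30) and Nts (0.39, SE 0.15), which striatal neurons or other forebrain cells also make, were among the 5, and their groups overlapped. Npy, the appetite-stimulating peptide of the arcuate nucleus that cortical and striatal interneurons also make, was at 12.9, 16.8 and 15.2 scaled CPM in knockouts and 9.49, 9.01 and 7.52 in wild types (log2 0.79, SE 0.15, edgeR adjusted p 0.191, DESeq2 adjusted p 0.00387). Agrp, which arcuate neurons make together with Npy, was at 4.27, 5.05 and 4.86 against 5.47, 7.35 and 5.80 (-0.39, SE 0.18), the opposite direction. Pomc overlapped between groups (-0.61, SE 0.24), and somatostatin (Sst) was at 63.7, 65.8 and 51.6 against 47.6, 45.5 and 45.9 (0.38, SE 0.10). From knockout 3 alone Npy was at 0.80 and Sst at 0.15. Of 24 hypothalamic transcription factors 14 were below 0 (median -0.05), and of 23 feeding receptors 14 were above 0 (median 0.11). Crhr1, a receptor for corticotropin-releasing hormone, was lower (-0.45, SE 0.13) and Npy1r, a receptor for Npy, higher (0.34, SE 0.11), each with groups apart and edgeR adjusted p-values of 0.361 and 0.400. Of the 23 feeding receptors 3 were higher with groups apart (background 7.6%) and 1 was lower (background 7.78%).

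Channels, receptors and activity genes did not share a direction. Of 24 genes of excitatory receptors 14 were below 0 (median -0.02). Groups were apart in 1 that was higher (background 7.6%) and in 3 that were lower (background 7.78%). Gria2, an AMPA receptor subunit, was the higher one (log2 0.37, SE 0.10). Grin2d, an NMDA receptor subunit (-0.40, SE 0.12), and Grm4, a metabotropic receptor (-0.33, SE 0.09), were among the 3 lower ones. Of 31 genes of calcium and sodium handling 17 were above 0 (median 0.02), and of 36 potassium channel genes 23 were below 0 (median -0.11). Among immediate early genes Fos was at 11.2, 12.3 and 10.3 scaled CPM in knockouts and 17.3, 15.6 and 15.3 in wild types (-0.51, SE 0.12). Egr3 ran the other way, at 30.1, 33.3 and 18.4 against 13.6, 6.74 and 15.4 (1.19, SE 0.30, and 0.62 from knockout 3 alone), as did Arc (0.39, SE 0.17). The 19 genes were split 10 above and 9 below 0.

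Glia gave small differences. Microglial genes were above 0 in 10 of 13 (median 0.15), with Cx3cr1, the fractalkine receptor (log2 0.33, SE 0.11), and Csf1r (0.21, SE 0.08) higher in each knockout than in each wild type. These were 2 of 13 (background 7.6%), and 1 of the 13 was lower in each knockout (background 7.78%). Among 15 astrocyte genes the glutamate transporter Slc1a3 was at 510, 570 and 527 scaled CPM in knockouts and 430, 460 and 423 in wild types (0.29, SE 0.09), and Aldh1l1 was lower, at 35.1, 33.3 and 33.5 against 43.4, 39.2 and 40.5 (-0.27, SE 0.08). Genes of mature oligodendrocytes had a median of -0.06 and of their precursors -0.01, and those of tanycytes and ependyma 0.03 and 0.07. All 52 tested genes of cytosolic ribosomal proteins had estimates above 0 (median 0.17), 10 of them with groups apart (background 7.6%), led by Rps29 (0.39, SE 0.10); wild type 1, the library with the highest balance of GC-rich over GC-poor transcripts (0.12 on the log2 scale, against -0.07 to 0.00), lay among the knockouts in summed level, at 4130 against 4105, 3966 and 4486. With the GC trend taken out all 52 estimates were above 0 (median 0.18). Such one-sided shifts were not particular to E3. In fed mice of the other lines 52 of these genes were above 0 in E4 (median 0.32) and 49 in E2 (0.33). In E5 32 were above 0 (0.04), and in E1 all 52 were below 0 (-0.13). Of 35 respiratory chain genes 32 were above 0 (median 0.10).

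None of the genes around Fto, the locus named in the deposited tables, was called by edgeR or DESeq2, and their estimates ran from -1.10 to 0.51. Fto (ENSMUSG00000055932, mm10 chromosome 8, 91313525 to 91668439, plus strand), an RNA demethylase, was at 278.7, 304 and 256 scaled CPM in knockouts and 295, 320 and 337 in wild types, which overlapped (log2 -0.18, SE 0.09, edgeR adjusted p 0.558); the 95% interval ran from -24.1% to 2.24%. Rpgrip1l, its neighbour with a role in the primary cilium, overlapped too (0.08, SE 0.11). The Irx genes, homeobox transcription factors on the same chromosome, were low. Irx5 was at 1.81, 0.735 and 2.99 against 4.75, 3.32 and 3.71, lower in each knockout (-1.10, SE 0.43, adjusted p 0.478), with an interval from -76.1% to -9.22%, and the estimate was -0.40 with knockout 3 alone. Irx3 was at 0.905, 0.919 and 1.07 against 2.28, 1.16 and 0.914, and Irx6 at 1.03, 0.597 and 0.855 against 0.678, 0.387 and 0.645; both overlapped.

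Of 35 genes on the list of the locus 31 were tested, 18 had estimates below 0 and the median was -0.01. No gene of it was called by edgeR or DESeq2, and 5 had an unadjusted p under 0.05, 2 higher (background 4.39%) and 3 lower (background 5.35%), counts near those shares of 31 genes. They included Tox3, a chromatin protein, at 49.4, 52.7 and 61.3 scaled CPM in knockouts and 52.4, 93.9 and 96.1 in wild types (log2 -0.57, SE 0.21), where wild type 1 lay among the knockouts. Cyld, a deubiquitinase, was at 218, 225 and 203 against 183, 187.8 and 189.01 (0.21, SE 0.08), and Slc12a3, a chloride cotransporter, at 1.16, 1.10 and 0.962 against 1.45, 1.99 and 2.04 (-0.76, SE 0.29). Genes that write, erase or read RNA methylation were at a median of 0.04, with 9 of 17 above 0, and those of the primary cilium at -0.02. Wtap, a subunit of the methyltransferase, was higher in each knockout than in each wild type (0.17, SE 0.07). In all, 2 of the 17 genes of RNA methylation were higher in this way (background 7.6%) and 1 was lower (background 7.78%).

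In fasted E3 mice some of the same genes had estimates of the same sign and others did not. Those 6 libraries are separate from the fed ones, so the 2 comparisons share no sample; edgeR called 0 of 14590 genes there, with 2546 at an unadjusted p under 0.05 (17.5%). Scaled to all 12 E3 libraries, Flt1 was at 19.3, 24.5 and 19.95 in fasted knockouts and 14.97, 24.1 and 12.9 in fasted wild types (log2 0.29, SE 0.22), against means of 25.8 ± 0.74 in fed knockouts and 54.7 ± 10.2 in fed wild types (SD, n = 3 each). Fasted values of the genotypes overlapped, and all 6 were below the fed wild types. Adgrl4 was at 0.05 (SE 0.24) in fasted mice and Ptprb at 0.06 (SE 0.23). Of the 12 genes lower in fed knockouts 8 had fasted estimates above 0, and of the 12 higher ones 7 had fasted estimates below 0; Mast3 (0.39, SE 0.15) and Rgs5 (-0.37, SE 0.17) were near their fed estimates. Endothelial genes had a fasted median of 0.10, with 17 of 28 above 0.

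**Figure D4:**
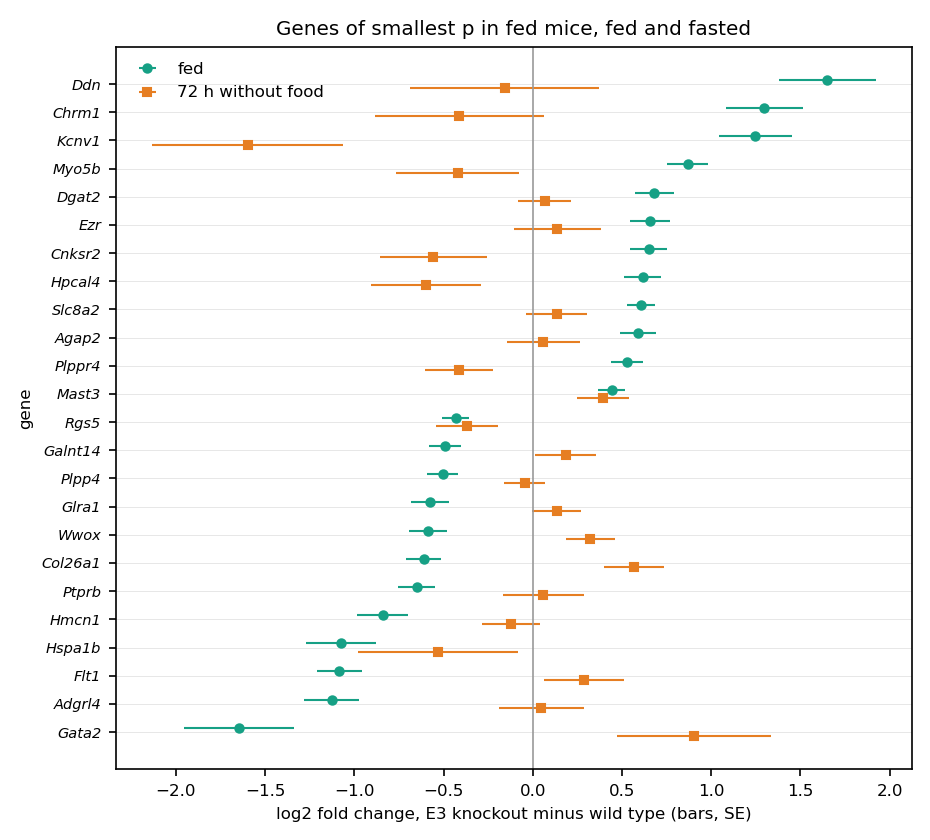
Log2 fold change, E3 knockout minus wild type, of the 24 genes of smallest p in fed mice, with fed estimates as circles, fasted estimates as squares and bars for SE. Fed estimates lie between -1.65 and 1.65 by choice of the genes; fasted estimates lie on both sides of 0, and Mast3 and Rgs5 have nearly the same value in both.

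The difference between the fed and fasted effects was tested as an interaction over the 12 E3 libraries, in which edgeR's quasi-likelihood test called 202 of 15033 genes (1.34%), 73 with a higher knockout effect in fasted mice (0.486%) and 129 with a lower one (0.858%); DESeq2 called 1098 (7.3%). The 202 included 3 endothelial genes, Flt1 (log2 1.38, SE 0.28, edgeR adjusted p 0.0397), Erg (1.21, SE 0.26, 0.0462) and Slc2a1, the glucose transporter of the barrier (0.84, adjusted p 0.0397), and 26 of 30 endothelial estimates were above 0. Of the 24 genes of smallest p in fed mice, 4 were called: Flt1, Col26a1, Wwox and Gata2. The interaction subtracts the fed effect by which these 24 genes were chosen, so those lower in fed knockouts lean towards values above 0. The same holds for the endothelial genes, of which 29 of 30 had fed estimates below 0. The pair of smallest p in the interaction had their larger genotype difference in fasted mice. Spcs3, a subunit of signal peptidase, was at 43.1 ± 3.07 in fasted knockouts and 64.0 ± 3.82 in fasted wild types, against 46.2 ± 2.01 and 37.0 ± 0.68 in fed ones (SD, n = 3 each; interaction -0.89). Gpm6a, a neuronal membrane glycoprotein, was at 803 ± 63.2 and 1282 ± 11.9 fasted, 812 ± 39.2 and 672 ± 14.0 fed (-0.95). These calls depend on the processing: after removal of the trend of each library over GC content edgeR called 0. The estimates were then 1.29 for Flt1, 0.92 for Wwox, 1.10 for Erg, 2.32 for Gata2 and 0.90 for Col26a1, and -0.57 for Spcs3 and -0.58 for Gpm6a. Leaving out 1 library gave 0 for each fed knockout, fed wild types 2 and 3, fasted knockout 2 and fasted wild types 1 and 3, while omitting fasted knockout 3 gave 29, fed wild type 1 gave 183, fasted knockout 1 gave 252 and fasted wild type 2 gave 697.

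In fed mice of the other lines, endothelial genes had medians of 0.20 in E1 (28 of 30 above 0), 0.45 in E2 (26 above), -0.39 in E4 (29 below) and 0.19 in E5 (26 above). E4 knockouts were thus lower in nearly all of these genes as well, with Flt1 at -0.79 (SE 0.27), Adgrl4 at -0.82 (SE 0.30) and Ptprb at -0.87 (SE 0.30) in the fit of all 38 fed libraries, and 9 of 30 genes lower at an unadjusted p under 0.05 (4.18% of all genes). In E2 10 of 30 were higher at that level, as were 10% of all genes, and in E1 and E5 0 and 1. E3 was thus not the only line with lower estimates for these genes. The contrast of the E3 effect with the mean effect of the other 4 lines called 0 of 15585 genes with edgeR (0.0%; 1006 at an unadjusted p under 0.05, 6.45%) and 13 with DESeq2 (0.0834%), 11 higher (0.0706%) and 2 lower (0.0128%). In that contrast Flt1 was at -1.08 (SE 0.35, edgeR adjusted p 0.429) and 7 of 30 endothelial genes had an unadjusted p under 0.05, all lower (background 2.9%).

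**Figure D5:**
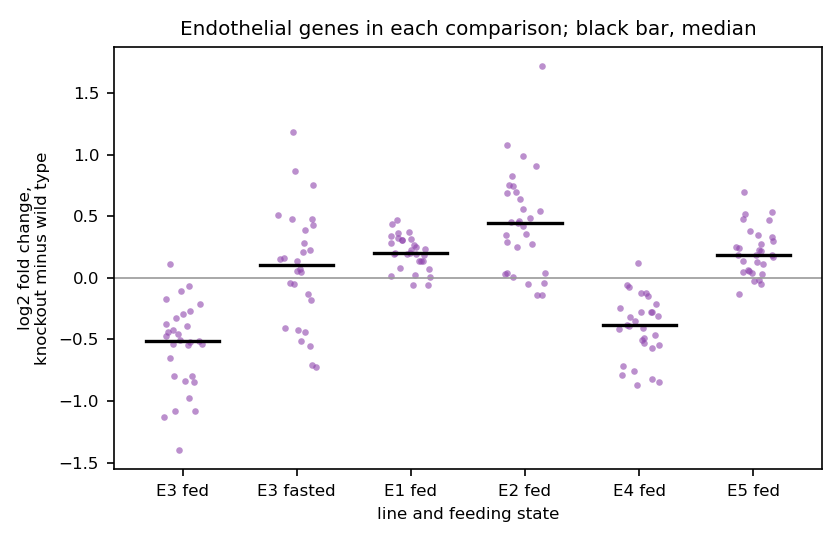
Log2 fold change, knockout minus wild type, of the endothelial genes (points) with their median (black bar), in E3 fed and fasted and in the fed libraries of E1, E2, E4 and E5. The E3 fed and E4 fed medians are below 0 (-0.51 and -0.39), and the others are above 0.

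The smallest p of the contrast with other lines belonged to Slc8a2 (log2 0.64, SE 0.12, edgeR adjusted p 0.0901; DESeq2 called it). DESeq2 also called Wasf1, a regulator of actin in neurons (0.48, SE 0.11), Trpc4, a cation channel (0.66, SE 0.14), Icam5, an adhesion molecule of forebrain neurons (1.46, SE 0.32), Hrk, which promotes apoptosis (0.64, SE 0.14), and Camk2a (0.63, SE 0.15), with edgeR adjusted p-values of 0.145 to 0.173. Ube2l6 was lower (-2.08, SE 0.44, edgeR adjusted p 0.145). The E3 libraries held the Y-linked Ddx3y at 75.8 to 98.1 scaled CPM and those of the other lines at 0.31 or less, so sex and line cannot be told apart in this contrast. Levels of some hypothalamic peptides were apart between lines, with the scaling of all 38 libraries: Oxt ran from 10.6 to 19.6 in E3 and from 28.2 to 175 in the others, and Hcrt from 14.3 to 26.3 against 27.6 to 88.5, while Avp, Pomc, Agrp, Pmch and Trh overlapped. Their medians were lower in E3, at 35.8 against 114 for Avp, 5.38 against 20.7 for Pomc and 5.62 against 7.19 for Agrp. Those of Pmch and Trh were 23.8 against 33.8 and 21.7 against 38.1. Npy overlapped as well, with a higher median in E3 (11.9 against 5.76). Medians of the thalamic Prkcd (138 against 11.5) and Tcf7l2 (312 against 79.4) were higher in E3. So were those of the cortical Slc17a7 (34.9 against 3.23) and Tbr1 (9.14 against 5.34).

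The authors' deposited table for this comparison, made with edgeR and given as wild type over knockout, lists 18055 genes, of which 39 have an adjusted p under 0.05 (0.216%), 24 lower (0.133%) and 15 higher (0.0831%) in knockouts. In the authors' deposited table Flt1 has an adjusted p of 2.57e-07 and Adgrl4 of 3.74e-06. Of the authors' 39 genes 37 were tested here, all 37 with the same direction in the fits of these counts, and 34 were called by DESeq2; both analyses use the same 6 libraries. Of the authors' 39 genes 4 stand on the endothelial list and 4 on that of red cells. Of the 24 genes of smallest p described above, 12 pass in the authors' deposited table.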

How the data were processed

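Per the labels' protocols, RNeasy columns gave total RNA and an Ultra II DNA kit the libraries; the strand setting is not stated. The deposited values are raw counts per Ensembl gene, and the submitters' processing notes name HISAT2, Bowtie2, edgeR and mm10, without versions. The authors also deposited log2 ratios of wild type over knockout with adjusted p-values and q-values; these were used only where named. The authors' edgeR table also holds a normalized signal per library, CPM over an effective library size, which was checked against the counts and not tested. Column prefixes were read as fed or fasted from the tables' names, and 0 columns were left without a sample.

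Counts were tested with edgeR 4.0.16 (quasi-likelihood, TMM factors, filterByExpr at min.count 10 and min.total.count 15) in R 4.3.3, knockout against wild type, on the 6 fed E3 libraries; an interaction used 12 E3 libraries and a contrast with the other lines 38 fed ones. Calls were made at a Benjamini-Hochberg adjusted p under 0.05. DESeq2 1.42.0 was an alternative. The scripts were tested on simulated counts. Symbols, coordinates and lengths came from GENCODE for GRCm38 (mm10), and promoters from RefSeq; E2, E4 and E5 tables list more genes, so fits across lines used genes listed in common.

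Depth was 15474269 to 21563021 counts per library. With 3 libraries a side an exact permutation test of 1 value cannot give a p below 0.1, so none is printed. The members and the 40 gene lists were chosen with earlier results of these data known. Trf, Pvalb and Lpl were taken out of the lists for liver, muscle and fat after their levels were seen, since brain cells express them, and 1 further gene that is not reported here was taken out of another list. Named genes were the 12 of smallest p in each direction whose mean log2 CPM reached 1, Fto and its neighbours, up to 4 genes of smallest p per list, the markers of highest level of other tissues, and the 5 of smallest p in the interaction and in the contrast with other lines, predicted models aside; 27 others were added after their values were seen, as examples or as members that did not differ. Wild type and knockout libraries with the same number were not treated as pairs.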

Additional observations from a re-analysis of the deposited data

Results flagged for a closer look

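The effect of the E3 knockout differed between fed and fasted mice by a test of the difference itself (interaction over 12 libraries, edgeR's quasi-likelihood test with Benjamini-Hochberg adjustment) for 202 genes. Each value here is the fasted minus the fed effect on the log2 scale, so genes chosen for a low fed effect lean towards values above 0. Among the genes lower in fed knockouts, Flt1 had an interaction of 1.38 (adjusted p 0.0397), Col26a1 1.18 (0.0357), Wwox 0.92 (0.0397) and Gata2 2.55 (0.0428). The endothelial Erg had 1.21 (0.0462) and Slc2a1 0.84 (0.0397). The genes of smallest p were Spcs3 at -0.89, Gpm6a at -0.95 and Zfp40, a zinc finger protein, at -1.13 (0.0255 each). They were followed by Ropn1l, a protein of cilia and sperm tails, at -1.21 and Spsb1, which directs proteins to ubiquitin ligases, with 1.13 (0.0357 each).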

How the results depend on the processing

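In fed E3 mice the edgeR count of 0 genes became 1 without the filter on low counts (Flt1, adjusted p 0.0379), 107 with DESeq2, 131 with the likelihood ratio test and 0 to 1 with single libraries left out (Penk without knockout 3). With knockout 3 alone against the wild types, chosen after seeing the data, it was 11, among them Ttr and Neurod6; the lone knockout is assumed to vary like the wild types. The interaction count of 202 became 1098 with DESeq2, 0 with the GC trend taken out and 0 to 697 with single libraries left out. The contrast with other lines gave 13 calls with DESeq2, 1 without 2 libraries of other lines that held transcripts of other tissues (Slc8a2), and 0 to 2 with single libraries left out (Tmem236 without wild type 1, Tfap2b and Ube2l6 without wild type 2). Of 40 lists 7 had summed levels that did not overlap between genotypes, where 7.78% of single genes were lower and 7.6% higher in each knockout. They were endothelium, VEGF, angiopoietin and Notch signals, pericytes and smooth muscle, astrocytes, cortex and hippocampus, liver and clock. Liver had 0 genes tested, and the endothelial and VEGF lists share genes. The count was 8 to 17 with single libraries left out, which leaves fewer libraries to overlap, and 20 with knockout 3 alone.

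With the replicate number as a block the fed count was 1 (Hbb-bs, adjusted p 0.0457) and the interaction count 3. The numbers did not pair the libraries: deviations of same-numbered libraries correlated at -0.04, 0.04 and -0.08, and 0 of 3 knockouts correlated best with their own number.

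Many of the 95 genes followed in the fed comparison were named for a small p in these same 6 libraries. Where groups do not overlap, leaving libraries out cannot change the sign, so a count of kept signs tests nothing. Under all alternatives run 91 of the 95 kept their sign. The exceptions were Rpgrip1l (-0.035 without knockout 2, up to 0.16 without knockout 3, and -0.094 with knockout 3 alone), Bpgm (0.065 with knockout 3 alone), Penk (-0.15 with knockout 3 alone) and Vegfa (0.0047 without knockout 3, 0.0011 without wild type 1, -0.072 without wild type 3). The interaction of Mast3 was 0.025 without fasted knockout 1 and 0.10 without fasted wild type 2, against -0.17 without fasted wild type 3. The cause was not tested. Genes near 1 scaled CPM rest on few counts.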
